A study of Homo sapiens with 6 samples.

Results

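The DEAD-box and DEAH-box RNA helicases were followed in HCT116 cells, an established line of human colorectal cancer, after an siRNA against PLOD3. Members were every protein-coding row of the deposited table whose gene symbol starts with DDX or DHX and a number, without DDX3Y, DDX58, DDX60, DDX60L and DHX58, which gave 50 genes (35 DDX and 15 DHX symbols) of 60612. The rule used names and annotation only, and no measured value. The series compares 3 samples of HCT116 treated with si NC, a control siRNA, with 3 samples treated with PLOD3 siRNA, all for 2 days and all in 1 line, with the labelled genotypes NC and PLOD3 siRNA and no other alteration or agent named. RNA was sequenced after removal of ribosomal RNA, and levels are FPKM, fragments scaled to transcript length and to the mapped fragments of the sample. Whether the 3 samples of a group came from separate cultures is not labelled, and p-values therefore cover the scatter of these samples alone, which could be technical.

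DEAD-box and DEAH-box proteins bind ATP and RNA through a pair of linked RecA-like domains, and open short duplexes, move proteins off RNA or clamp onto it. They are named after the 4-residue Walker B motif that coordinates magnesium and water at the site of ATP hydrolysis. DEAD-box enzymes pull strands apart locally and often depend on partner proteins, while DEAH-box enzymes tend to pull on a single strand from its 3′ side and are switched on by G-patch proteins. In growing cells most members serve the making of ribosomes, the splicing cycle, mRNA export, translation and mRNA decay, and a few act only in germ cells.

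The motif itself was read from the coding bases, since it is the feature from which the family takes its name. In the longest coding sequence of each member in GENCODE release 29 (GRCh38), the motif was spelled DEAD in 29 members, DEAH in 9, DEVH in 4 and DESD in 1, while DECD, DEVD and DEIH had 2 members each. It was not found in 1 member, DHX32, but the search would miss other spellings. It took only DE, then A, C, V, I or S, then D or H, after residues of set kinds. DECD belonged to DDX39A and DDX39B, DEVD to DDX21 and DDX50, DEIH to DHX9 and DHX36, DEVH to DHX29, DHX30, DHX34 and DHX57, and DESD to DDX52. DDX11, named DDX, carried DEAH. The lines that follow show the bases around the motif for the 8 members whose rise was the most stable in these data, for the paralogs of 2 of them, and for DDX19A and DDX19B. The 12 capitals are the 4 codons of the motif, each line is the coding strand from 5′ to 3′, and the coordinates (GRCh38) run from the motif's lowest to its highest base.
DDX18, DEAD, chr2:117822192-117822203, plus strand, exon 7: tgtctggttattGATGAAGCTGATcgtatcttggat
DDX47, DEAD, chr12:12822042-12822053, plus strand, exon 5: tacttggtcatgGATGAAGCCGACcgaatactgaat
DDX1, DEAD, chr2:15617334-15618183, plus strand, exons 16 and 17: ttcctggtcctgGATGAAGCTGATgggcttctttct
DDX21, DEVD, chr10:68967128-68967139, plus strand, exon 6: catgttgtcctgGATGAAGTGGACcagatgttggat
DDX50, DEVD, chr10:68913501-68913512, plus strand, exon 6: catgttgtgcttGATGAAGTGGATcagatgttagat
DDX39A, DECD, chr19:14411008-14411019, minus strand, exon 5: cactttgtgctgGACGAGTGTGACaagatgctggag
DDX39B, DECD, chr6:31536519-31536530, minus strand, exon 5: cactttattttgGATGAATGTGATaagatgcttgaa
DDX19A, DEAD, chr16:70366201-70366212, plus strand, exon 8: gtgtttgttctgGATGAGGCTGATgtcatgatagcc
DDX19B, DEAD, chr16:70329408-70329419, plus strand, exon 8: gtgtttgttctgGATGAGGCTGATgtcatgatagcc
DHX35, DEAH, chr20:38992369-38992380, plus strand, exon 7: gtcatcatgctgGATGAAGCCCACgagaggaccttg
DHX29, DEVH, chr5:55277277-55281377, minus strand, exons 12 and 13: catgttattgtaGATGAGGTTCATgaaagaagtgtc
DHX9, DEIH, chr1:182867017-182867028, plus strand, exon 14: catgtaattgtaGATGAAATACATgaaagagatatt
The motifs of DDX1 and DHX29 lie across an exon junction, so their coordinates span an intron. The 36 bases of DDX19A and DDX19B were identical.

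The deposited counts summed to 55416555 to 76802428 units per sample, and about 4 units were taken to stand for 1 read pair. PLOD3 (ENSG00000106397), the siRNA's target, was at 6.40, 7.16 and 6.22 FPKM across si NC samples and 3.44, 3.40 and 4.05 after PLOD3 siRNA, a log2 fold change of -0.85 (edgeR: SE 0.11, adjusted p = 0.0035), so every library matched its label. With the correction for GC content described below, the log2 fold change of PLOD3 was smaller, at -0.52 (edgeR, adjusted p = 0.0074). Of the 4 epithelial markers, all 4 were expressed, with a summed FPKM of 386 to 445 in si NC and 326 to 394 in PLOD3 siRNA samples, and CDH1 and KRT18 fell. Summed FPKM was 2.64 to 2.76 and 1.48 to 1.91 over 7 fibroblast markers (2 listed without reads), 0.335 to 0.548 and 0.149 to 0.286 over 6 leukocyte markers (2 without reads), and 0.094 to 0.23 and 0.091 to 0.119 over 5 endothelial markers (1 without reads). The part of these markers in the results was not tested. Fewer cells of a kind and less RNA per cell cannot be told apart in such bulk RNA.

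Among the tested helicases 17 rose and 0 fell, led by DDX18, DDX47, DDX21 and DHX35 at log2 fold changes of 0.59 to 0.82. Of the 50 members, 46 reached a mean of 1 FPKM over the 6 samples and were tested. In edgeR's quasi-likelihood test with p-values adjusted over 12000 genes, 17 of the 46 were higher in PLOD3 siRNA samples at a threshold of 0.05, which is 37.0% of them, beside 16.2% of all tested genes. No member was lower, beside 19.3% of all tested genes: 2 members, DHX16 and DHX33, were lower at an unadjusted p under 0.05, and DESeq2 called 0 lower. The median log2 fold change of the 46 members was 0.23, against 0.003 over all tested genes, with 34 members above 0 and 12 below. By symbol, the 31 tested DDX members had a median of 0.26, with 27 above 0 and 12 called higher (38.7%). The 15 tested DHX members had a median of -0.05, with 7 above 0, 8 below and 5 called higher (33.3%). On the TPM scale, FPKM rescaled to the same sum in every sample, 21 members rose and 0 fell, the median over all genes was 0.095, and 62.8% of all calls were higher, against 45.6% here. On that scale 1461 of the 12000 tested genes were lower, against 2319 here. The 21 members are therefore not set against the 16.2%, which belongs to the main fit. All 3 PLOD3 siRNA samples lay above all 3 si NC samples in 23 members (50.0%, beside 24.6% of tested genes), the reverse held in 5 (DDX17, DHX16, DHX30, DHX32 and DHX33, beside 27.5% of tested genes), and the groups overlapped in 18.

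Fold changes in these libraries moved with base composition, and the members were read against that too. Across 11968 tested genes Pearson's r between the log2 fold change and the GC content of the longest coding transcript was -0.38, and across the 46 members, which share the same 6 libraries, it was -0.54. Of the 23 members below the family's median GC content 12 rose, and of the 23 at or above it 5 rose. Shares of all tested genes in the same GC ranges were not counted, so no result about the members is read from the split. A correction that removes the trend of counts over GC content within each sample left 15 members higher (32.6%, beside 13.0% of all tested genes) and 2 lower (DDX17 and DHX32, beside 14.3%), with a median log2 fold change of 0.17. The corrected medians were 0.21 for the DDX and 0.13 for the DHX symbols. Both fits called 11 members higher. DDX6, DDX10, DDX46, DDX52, DHX15 and DHX36 were called only without the correction, and DDX11, DDX39B, DDX49 and DDX54 only with it. Whether GC content has a part in any single change was not tested.

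**Figure D1:**
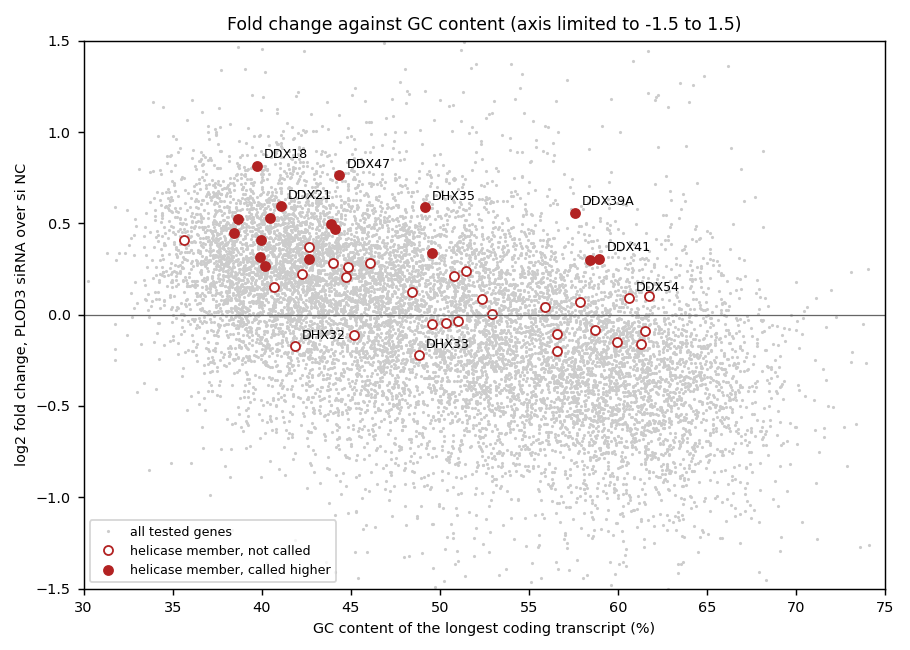
Log2 fold change of each tested gene (vertical axis, PLOD3 siRNA over si NC) against the GC content of its longest coding transcript (horizontal axis, percent), with all tested genes in grey and the 46 helicase members in red, filled where called higher. The 12 of 23 low-GC members that rose fill the upper left, while DDX39A, DDX41 and DDX28 rose at a GC content of 57.6% to 59.0%.

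A group of 8 members was called higher in both fits and in each of the 6 fits that left out 1 sample: DDX18, DDX47, DDX21, DHX35, DDX39A, DHX29, DHX9 and DDX1, with log2 fold changes of 0.47 to 0.82. The share of all tested genes that pass this combined filter was not counted, so no result about the family is read from the number. DDX6 and DHX36 were also called in each of those 6 fits. The number of members called higher was 11 without PLOD3 siRNA replicate 1 and 12 to 14 without any 1 of the other samples. The background moved too: 1083 of all 12000 tested genes were higher without PLOD3 siRNA replicate 1, and 1083 to 1651 over the 6 fits.

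The members of ribosome assembly held the 3 largest rises, DDX18, DDX47 and DDX21. In all 6 of 16 were higher (37.5%, beside 16.2% of all tested genes) and 0 lower, with a median log2 fold change of 0.24. Without PLOD3 siRNA replicate 1 the count was 3 of 16, beside 1083 of all 12000 tested genes in that fit. These nucleolar enzymes act on pre-rRNA and the small nucleolar RNAs paired to it. DDX18 (ENSG00000088205, GRCh38 chromosome 2, 117814691 to 117832377), the counterpart of yeast Has1, which acts in both ribosomal subunits, was at 12.2, 10.3 and 12.3 FPKM across si NC samples and 21.5, 20.0 and 19.3 after PLOD3 siRNA. Every treated sample stood clear above the controls, with a log2 fold change of 0.82 (edgeR: SE 0.087, adjusted p = 0.00263), the largest in the family. DDX47 (ENSG00000213782, GRCh38 chromosome 12, 12813316 to 12829981), which works on the precursor of the small subunit's rRNA, was at 15.3, 12.3 and 13.3 FPKM across si NC samples and 24.1, 23.0 and 21.9 after PLOD3 siRNA, and again no samples of the groups overlapped. Its log2 fold change of 0.76 (edgeR: SE 0.089, adjusted p = 0.00303) has a limit: the gene lies inside APOLD1 on the same strand, APOLD1 went from a mean FPKM of 2.89 to 0.588, and with the counts of both genes added together the log2 fold change was 0.43, still called higher.

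DDX21 (ENSG00000165732, GRCh38 chromosome 10, 68956170 to 68985068) is a nucleolar helicase that binds both rRNA genes and their transcripts. Second in abundance among the members, it was at 56.6, 44.0 and 53.1 FPKM across si NC samples and 82.4, 72.4 and 76.6 after PLOD3 siRNA. The groups did not overlap, and the log2 fold change of 0.60 (edgeR: SE 0.096, adjusted p = 0.0063) was smaller, at 0.37, after the GC correction but still called. DDX52 (ENSG00000278053, GRCh38 chromosome 17, 37609739 to 37643446), the counterpart of Rok1 in the small-subunit pathway, was at 5.25, 4.73 and 5.32 FPKM across si NC samples and 6.61, 6.02 and 6.33 after PLOD3 siRNA. Its log2 fold change of 0.31 (edgeR: SE 0.069, adjusted p = 0.016) was not called after the GC correction, where it was 0.06, nor without PLOD3 siRNA replicate 1. DDX24, a helicase of the large-subunit pathway, went from 19.0 ± 0.974 to 23.9 ± 1.33 FPKM (SD, n = 3), with a log2 fold change of 0.34 (edgeR: SE 0.08, adjusted p = 0.02), and was not called without PLOD3 siRNA replicate 1, si NC replicate 2 or si NC replicate 3. DDX10, which helps release small nucleolar RNAs from the precursor, went from 6.75 ± 0.377 to 8.09 ± 0.238 FPKM (SD, n = 3), with a log2 fold change of 0.27 (edgeR: SE 0.066, adjusted p = 0.0232). That call held in 1 of the 6 leave-one-out fits, without si NC replicate 3, and was lost after the GC correction (log2 fold change 0.01).

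The other 10 members of ribosome assembly did not pass the test. DDX50, the paralog of DDX21, was nearest to it, at 7.83, 6.88 and 7.05 FPKM across si NC samples and 8.63, 10.5 and 8.83 after PLOD3 siRNA. Its groups did not overlap, with a log2 fold change of 0.37 (edgeR: SE 0.12, adjusted p = 0.051). DDX31, DDX27, DDX49, DDX51, DDX54, DDX55 and DDX56, which act in large- and small-subunit assembly, had log2 fold changes of -0.08 to 0.28. DHX33 and DHX37, the DEAH-box enzymes of the group, had log2 fold changes of -0.22 and -0.16, and DHX37 became 0.17 after the GC correction, as DDX51 went from -0.08 to 0.19. DDX49 and DDX54 have a GC content of 61.7% and 60.6%, and were called higher after the GC correction, at a log2 fold change of 0.44 and 0.41.

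Among the helicases of the spliceosome, 4 of 9 rose (44.4%, beside 16.2% of all tested genes) and 0 fell, with a median log2 fold change of 0.12. This count moved with single samples: it was 1 (DHX35) without PLOD3 siRNA replicate 1, 2 without PLOD3 siRNA replicate 2 or 3 or si NC replicate 2 or 3, and 3 without si NC replicate 1. After the GC correction 2 of the 9, DHX35 and DDX41, were called (22.2%, beside 13.0% of all tested genes), so the count is not read as a result about the group. DHX35 (ENSG00000101452, GRCh38 chromosome 20, 38962299 to 39039721), found in the catalytically active complex, was at 2.46, 2.20 and 2.28 FPKM across si NC samples and 4.10, 3.05 and 3.26 after PLOD3 siRNA. All treated samples were higher, replicate 1 most of all, with a log2 fold change of 0.59 (edgeR: SE 0.12, adjusted p = 0.0134), nearly the same after the GC correction at 0.59. DHX15 (ENSG00000109606, GRCh38 chromosome 4, 24517441 to 24584537), the enzyme that takes apart the spent spliceosome and frees the intron lariat, was at 30.7, 28.0 and 31.2 FPKM across si NC samples and 38.5, 36.9 and 35.0 after PLOD3 siRNA. Its groups did not overlap either, and its log2 fold change of 0.30 (edgeR: SE 0.074, adjusted p = 0.0222) was 0.11 and not called after the GC correction. DHX15 was called in 2 of the 6 fits with a sample left out, without PLOD3 siRNA replicate 3 and without si NC replicate 3. DDX46 (ENSG00000145833, GRCh38 chromosome 5, 134758771 to 134829932), which lets the U2 particle settle on the branch site, was at 18.3, 12.7 and 16.6 FPKM across si NC samples and 25.6, 19.3 and 23.3 after PLOD3 siRNA. Among the tested members this was the widest spread in si NC, a coefficient of variation of 18.2%, with replicate 2 low in both groups. Its log2 fold change of 0.52 (edgeR: SE 0.14, adjusted p = 0.0322) was not called after the GC correction, where it was 0.25, nor without PLOD3 siRNA replicate 1, PLOD3 siRNA replicate 3 or si NC replicate 3. DDX41 (ENSG00000183258, GRCh38 chromosome 5, 177511577 to 177516961), a helicase of the later spliceosome whose gene is mutated in inherited myeloid neoplasms, was at 17.9, 16.3 and 14.2 FPKM across si NC samples and 20.3, 19.7 and 19.6 after PLOD3 siRNA. The treated samples lay close together and above all controls, with a log2 fold change of 0.31 (edgeR: SE 0.091, adjusted p = 0.0413) that held in 1 of the 6 fits with a sample left out, without si NC replicate 1.

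The remaining spliceosomal members did not pass the test. They are the enzymes that drive the cycle's ordered steps: DDX23 swaps U1 for U6 at the 5′ splice site (log2 fold change 0.004), DHX16 readies the spliceosome for the branching step (-0.20), DHX38 for exon ligation (-0.11), and DHX8 releases the mRNA (-0.05). DDX42, a partner of the SF3B complex, was at 0.12. DHX16 and DHX38 changed sign after the GC correction, to 0.02 and 0.10, DHX8 to 0.05 on the TPM scale, and DDX23 in several alternatives. DHX8 overlaps ETV4 on the opposite strand over 18497 bases, and the mean FPKM of ETV4 went from 12.3 to 7.79. Without a stated strand setting, reads of DHX8 and ETV4 cannot be told apart there.

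**Figure D2:**
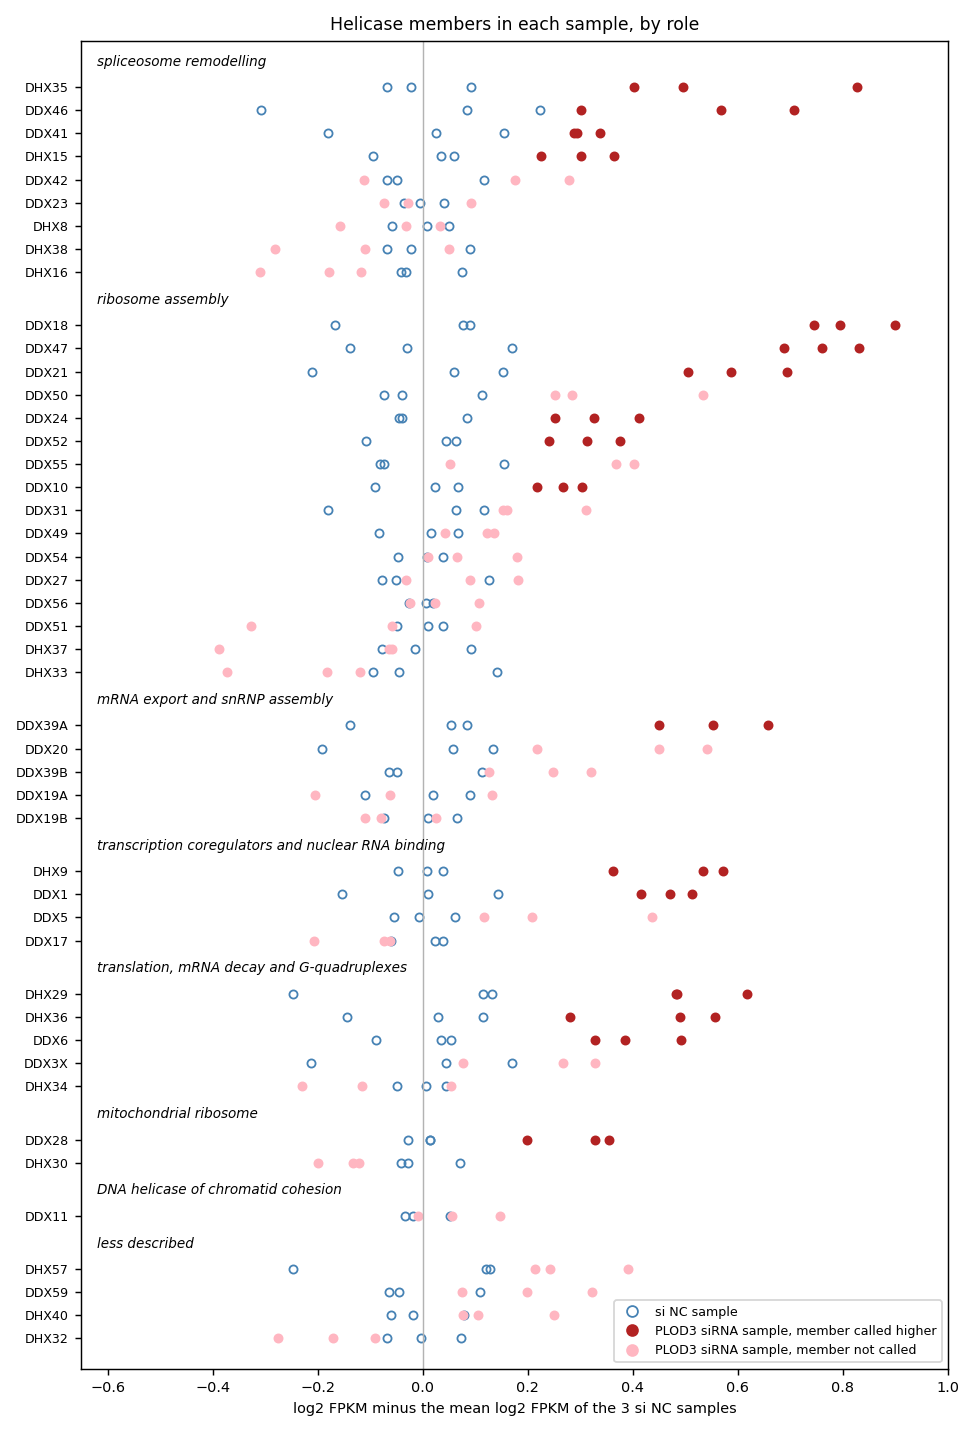
Log2 FPKM of each of the 46 tested members in each sample, as the difference from the mean of the 3 si NC samples (horizontal axis), with members grouped by role; open blue circles are si NC samples and filled red circles PLOD3 siRNA samples, dark where the member was called higher. In the 17 called members every red circle lies to the right of every blue one, DDX18 and DDX47 farthest.

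Members that act on mRNA after its synthesis were next. Of the 5 members of mRNA export and snRNP assembly 1 rose (20%, near the 16.2% of all tested genes) and 0 fell. DDX39A (ENSG00000123136, GRCh38 chromosome 19, 14408798 to 14419380), an export helicase also called URH49, was at 22.3, 22.8 and 19.5 FPKM across si NC samples and 31.5, 33.9 and 29.3 after PLOD3 siRNA. All treated samples lay well above the controls, with a log2 fold change of 0.56 (edgeR: SE 0.1, adjusted p = 0.00909), and 0.80 after the GC correction. Its paralog DDX39B (ENSG00000198563, GRCh38 chromosome 6, 31530219 to 31542401), also called UAP56, loads the export complex on spliced mRNA and was at 33.4, 37.4 and 33.1 FPKM across si NC samples and 43.2, 41.1 and 37.7 after PLOD3 siRNA. The groups did not overlap, but the log2 fold change of 0.24 (edgeR: SE 0.094, adjusted p = 0.0927) did not pass the test. DDX39B was called after the GC correction and on the TPM scale. A readthrough gene on the same strand, ATP6V1G2-DDX39B, went from a mean FPKM of 0.941 to 5.08, and with its counts added DDX39B had a log2 fold change of 0.28 and was again not called.

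DDX20, the helicase of the SMN complex, which assembles snRNPs, was at 1.93, 2.30 and 2.42 FPKM across si NC samples and 3.21, 3.02 and 2.57 after PLOD3 siRNA. Its samples did not overlap between groups, and its log2 fold change of 0.41 (edgeR: SE 0.14, adjusted p = 0.0687) did not pass the test, though DESeq2, the TPM scale and the fit without PLOD3 siRNA replicate 3 called it. DDX19A and DDX19B encode the export helicase at the cytoplasmic face of the nuclear pore. DDX19A was at 6.63, 6.32 and 5.78 FPKM across si NC samples and 5.97, 5.40 and 6.82 after PLOD3 siRNA. DDX19B was at 8.97, 9.32 and 8.46 FPKM across si NC samples and 8.43, 8.25 and 9.07 after PLOD3 siRNA. The groups overlapped in both, with a log2 fold change of -0.04 (edgeR, adjusted p = 0.785) and a log2 fold change of -0.05 (edgeR, adjusted p = 0.637), and both turned to above 0 on the TPM scale (0.06 and 0.05).

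The 4 transcription coregulators and nuclear RNA-binding helicases were abundant, with si NC means of 22.5 to 64.2 FPKM, and 2 of them rose (50%, beside 16.2% of all tested genes). DHX9 (ENSG00000135829, GRCh38 chromosome 1, 182839347 to 182887982), RNA helicase A, which unwinds structured RNA and R-loops, was the most abundant member, at 64.5, 62.1 and 65.9 FPKM across si NC samples and 92.9, 82.5 and 95.4 after PLOD3 siRNA. Its lowest treated sample was well above its highest control, with a log2 fold change of 0.50 (edgeR: SE 0.067, adjusted p = 0.00416). DDX1 (ENSG00000079785, GRCh38 chromosome 2, 15591178 to 15631111), a part of the tRNA ligase complex, was at 42.1, 34.2 and 38.4 FPKM across si NC samples and 52.8, 54.4 and 50.9 after PLOD3 siRNA. The treated samples varied little and lay above all controls, with a log2 fold change of 0.47 (edgeR: SE 0.086, adjusted p = 0.00919). DDX5, a coactivator of many transcription factors and a splicing factor, was at 52.6, 50.2 and 48.6 FPKM across si NC samples and 58.3, 54.7 and 68.3 after PLOD3 siRNA. The groups did not overlap, replicate 3 was the highest treated sample, and the log2 fold change of 0.26 (edgeR: SE 0.086, adjusted p = 0.0535) did not pass the test, whereas DESeq2 and the TPM scale called it. DDX17, its paralog, was at 23.1, 21.5 and 22.8 FPKM across si NC samples and 21.4, 19.5 and 21.5 after PLOD3 siRNA. Each treated sample lay below every control before rounding, with a log2 fold change of -0.11 (edgeR, adjusted p = 0.184), and this difference was called after the GC correction, at -0.22.

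Of the 5 members of translation, mRNA decay and G-quadruplexes 3 rose (60%, beside 16.2% of all tested genes) and 0 fell, with a median log2 fold change of 0.41. After the GC correction 1 of the 5, DHX29, was called, which is near the share of all genes. DDX6 (ENSG00000110367, GRCh38 chromosome 11, 118747763 to 118791164), which represses translation and organises P-bodies, was at 13.1, 11.9 and 13.0 FPKM across si NC samples and 17.8, 15.9 and 16.5 after PLOD3 siRNA. No samples overlapped between groups, with a log2 fold change of 0.41 (edgeR: SE 0.065, adjusted p = 0.00618), which was 0.15, and not called, after the GC correction. DHX29 (ENSG00000067248, GRCh38 chromosome 5, 55256055 to 55307694), which helps the small ribosomal subunit scan structured leaders, was at 8.41, 6.47 and 8.31 FPKM across si NC samples and 11.8, 10.7 and 10.7 after PLOD3 siRNA. Its 3 treated samples stood apart, with a log2 fold change of 0.53 (edgeR: SE 0.11, adjusted p = 0.0127), and 0.28 after the GC correction. DHX36 (ENSG00000174953, GRCh38 chromosome 3, 154272546 to 154324487), a major unwinder of G-quadruplexes, was at 2.96, 2.63 and 3.14 FPKM across si NC samples and 4.07, 3.52 and 4.27 after PLOD3 siRNA. The log2 fold change of 0.45 (edgeR: SE 0.095, adjusted p = 0.0146) came with no overlap between groups and was 0.16, and not called, after the GC correction. DDX3X, which assists initiation on structured mRNAs, was at 10.4, 7.97 and 9.53 FPKM across si NC samples and 11.6, 9.74 and 11.1 after PLOD3 siRNA. Its groups overlapped and its log2 fold change of 0.22 (edgeR: SE 0.1, adjusted p = 0.125) did not pass the test. DHX34, a helicase of nonsense-mediated decay, was at a log2 fold change of -0.09 (edgeR, adjusted p = 0.452), which became 0.24 after the GC correction and 0.01 on the TPM scale.

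Of the 2 members of the mitochondrial ribosome 1 rose and 0 fell, beside 16.2% and 19.3% of all tested genes. A share cannot be read from 2 members. DDX28 (ENSG00000182810, GRCh38 chromosome 16, 68020916 to 68023232), which assembles the large mitochondrial subunit, was at 7.42, 7.20 and 7.42 FPKM across si NC samples and 8.43, 9.22 and 9.39 after PLOD3 siRNA. All treated samples were above the tight controls, with a log2 fold change of 0.30 (edgeR: SE 0.087, adjusted p = 0.0379), called in 1 of the 6 fits with a sample left out, without PLOD3 siRNA replicate 1. DDX28 lies whole within DUS2 on the opposite strand (mean FPKM 3.99 and 4.68), and without a stated strand setting their reads cannot be told apart. DHX30, a mitochondrial RNA granule protein, was at 17.9, 19.3 and 18.1 FPKM across si NC samples and 16.8, 16.0 and 16.9 after PLOD3 siRNA. Its treated samples were all below the controls, with a log2 fold change of -0.15 (edgeR, adjusted p = 0.135), which did not pass the test and became 0.16 after the GC correction.

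Outside these roles no member was called. DDX11, a DNA helicase of sister chromatid cohesion, was at 6.07, 6.38 and 6.01 FPKM across si NC samples and 6.40, 6.12 and 6.81 after PLOD3 siRNA, with overlapping groups and a log2 fold change of 0.07 (edgeR, adjusted p = 0.467). It was called after the GC correction, at 0.32, and its near-identical copy DDX12P (mean FPKM 2.50 and 3.31) makes both values uncertain. DHX57 was at 4.34, 3.34 and 4.31 FPKM across si NC samples and 5.20, 4.69 and 4.60 after PLOD3 siRNA, with a log2 fold change of 0.28 (edgeR, adjusted p = 0.101) and no overlap between groups. DHX32, in which the search did not find the motif, was at 21.5, 19.5 and 20.3 FPKM across si NC samples and 18.1, 19.2 and 16.8 after PLOD3 siRNA. Its treated samples lay below all controls, with a log2 fold change of -0.17 (edgeR, adjusted p = 0.16), and -0.39 and called lower after the GC correction. DHX32 overlaps BCCIP on the opposite strand, whose mean FPKM went from 21.7 to 34.5. DDX59 was at 2.67, 2.40 and 2.36 FPKM across si NC samples and 3.09, 2.84 and 2.61 after PLOD3 siRNA. DHX40 was at 16.9, 15.4 and 15.8 FPKM across si NC samples and 17.2, 19.0 and 16.9 after PLOD3 siRNA. The groups of DDX59 and DHX40 overlapped, with a log2 fold change of 0.20 (edgeR, adjusted p = 0.182) and a log2 fold change of 0.15 (edgeR, adjusted p = 0.205). The 4 untested members are the germ-line helicases DDX4 (vasa), DDX25, DDX43 and DDX53, whose group means were 0.0001 to 0.0428 FPKM, where 0.0001 is the table's entry for a gene without reads.

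**Figure D3:**
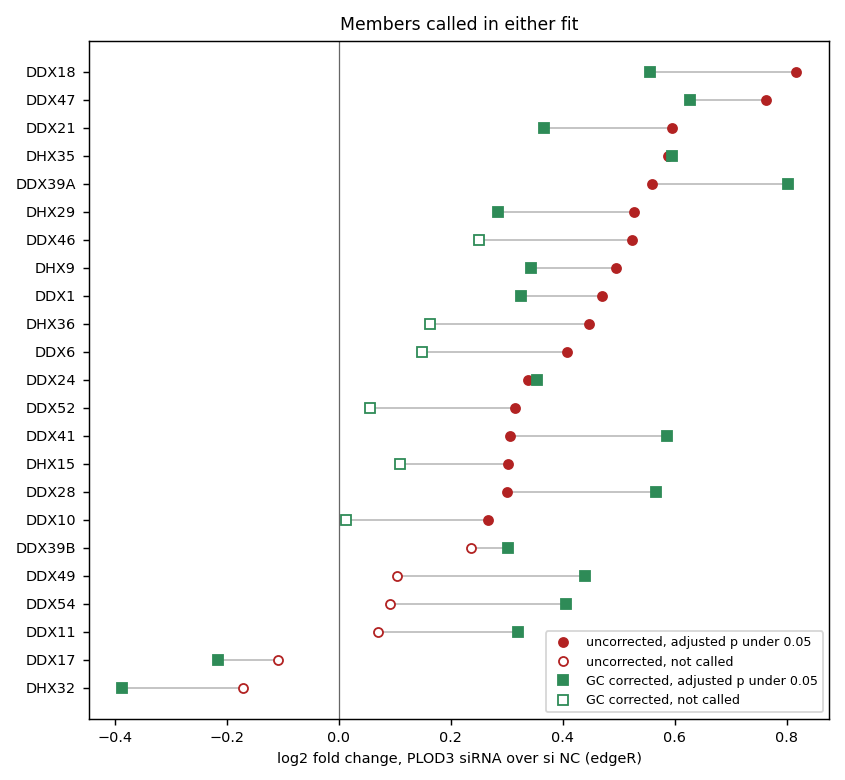
Log2 fold change (horizontal axis, edgeR, PLOD3 siRNA over si NC) of the 23 members called in either fit, without the GC correction (circles) and with it (squares), filled where the adjusted p was under 0.05. The 11 members with both markers filled on the right run from DDX18 to DDX28, and DDX17 and DHX32 lie to the left of 0.

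Levels spanned a wide range within the family, and FPKM, being per length, can be compared between genes. In si NC the order began with DHX9 (64.2 ± 1.92 FPKM, SD, n = 3), DDX21 (51.2 ± 6.51), DDX5 (50.5 ± 2.03), DDX1 (38.3 ± 3.94) and DDX39B (34.6 ± 2.40), and ended among the tested members with DHX35 (2.31 ± 0.13) and DDX20 (2.22 ± 0.25). DHX9 stood above DDX21 in every si NC sample, whereas DDX21 and DDX5 did not differ beyond their spread, nor did DDX1 and DDX39B. From DDX17 down, most neighbours in the order overlapped. The median coefficient of variation between samples of a group was 5.87% for si NC and 6.61% for PLOD3 siRNA.

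**Figure D4:**
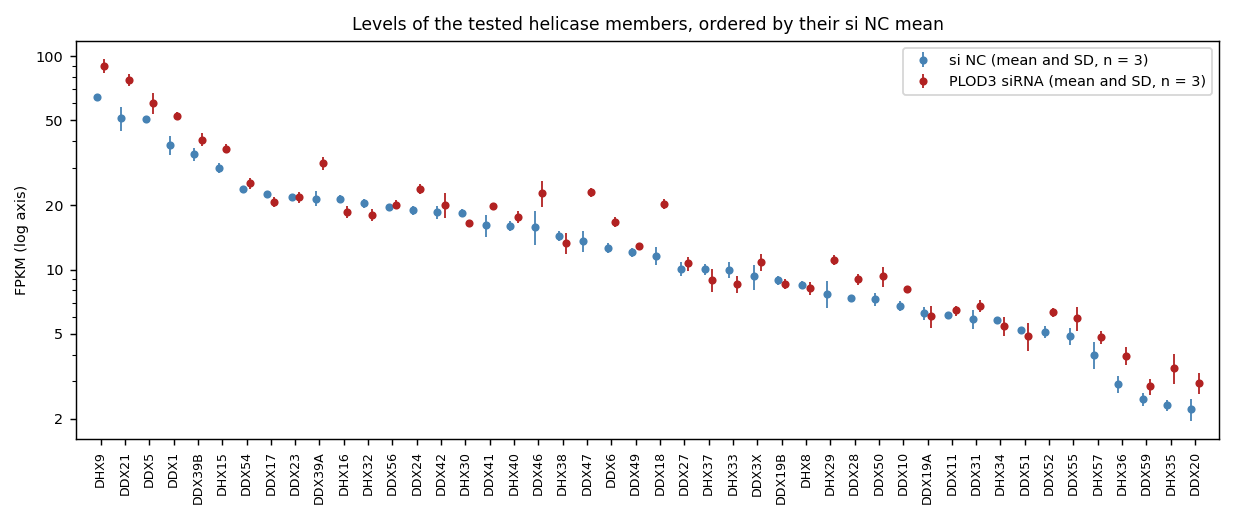
FPKM (vertical log axis) of the 46 tested members, ordered by their si NC mean; points are group means and bars the SD of 3 samples. DHX9, DDX21, DDX5 and DDX1 lead in both groups, and on this log axis the gap between groups is widest at DDX18 and DDX47.

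Summed over all 50 members, the family's FPKM came to 755, 701 and 726 across si NC samples and 895, 844 and 886 after PLOD3 siRNA. Each treated sample was above each control, with means of 728 ± 26.8 and 875 ± 27.0 (SD, n = 3) and a ratio of 1.20. The sum leans on its most abundant members: DHX9, DDX21, DDX5 and DDX1 made up 27.2% to 28.6% of it in si NC and 31.3% to 32.9% in PLOD3 siRNA samples. The exact permutation test over samples gave p = 0.1 (two-sided), the smallest that 3 samples against 3 allow. Replicate 2 was the lowest sample of its group in 28 of the 46 tested members in si NC and in 25 in PLOD3 siRNA. The same share over all tested genes was not counted, so these numbers are not read as a trait of the family. Without si NC replicate 2 the number of members higher was 12 and the median log2 fold change 0.19, and the same values without PLOD3 siRNA replicate 2 were 14 and 0.23. Across the fits that left out 1 sample, 1083 to 1651 of all tested genes were higher.

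Paralog pairs were compared as ratios within a sample, which no scaling between samples changes. The log2 ratio of DDX5 to DDX17 was 1.19, 1.22 and 1.09 across si NC samples and 1.45, 1.49 and 1.67 after PLOD3 siRNA. It was higher in every treated sample, with means of 1.17 and 1.53 (exact permutation p = 0.1, the smallest possible, 0.2 adjusted over 4 pairs). For DDX39A over DDX39B it was -0.58, -0.72 and -0.76 across si NC samples and -0.46, -0.28 and -0.36 after PLOD3 siRNA. Here too the groups did not overlap, and the means moved from -0.69 to -0.37 (exact permutation p = 0.1, adjusted 0.2). DDX21 and DDX50 are neighbours on chromosome 10, and their log2 ratio was 2.85, 2.68 and 2.91 across si NC samples and 3.25, 2.79 and 3.12 after PLOD3 siRNA. These groups overlapped (exact permutation p = 0.3, adjusted 0.4). DDX19A over DDX19B was -0.44, -0.56 and -0.55 across si NC samples and -0.50, -0.61 and -0.41 after PLOD3 siRNA, with no separation (exact permutation p = 0.9, adjusted 0.9). None of the 4 tests could reach 0.05.

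**Figure D5:**
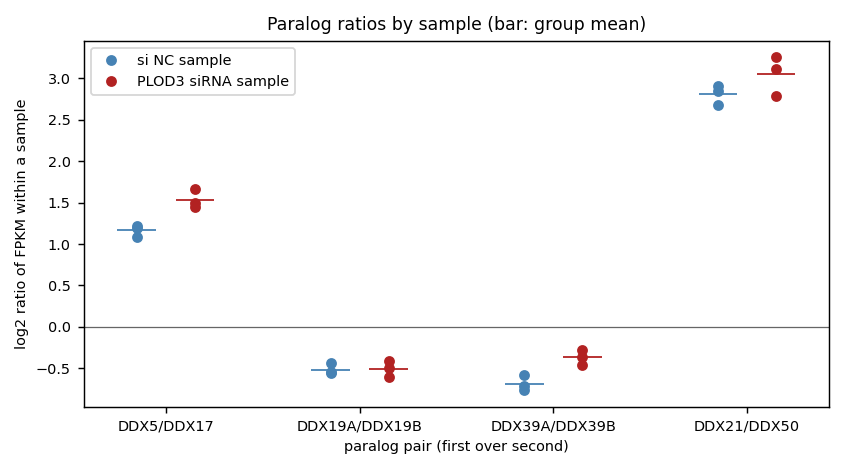
Log2 ratio of FPKM within each sample (vertical axis) for 4 paralog pairs (horizontal axis), with si NC samples in blue, PLOD3 siRNA samples in red and a bar at each group mean. The groups are apart for DDX5/DDX17 and DDX39A/DDX39B and overlap for the other two pairs.

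The promoters of the members were searched for 4 short motifs, since 17 members had moved in 1 direction. RefSeq promoters (GRCh38.p14, 250 bases before to 50 after each start) matched 46 of the 50 members, and not DDX18, DDX49, DDX52 and DHX33. Over the tested members with a promoter (42), counting a gene where any of its starts held the letters on either strand, the ETS core CCGGAAG was found in 54.8%, against 24.1% of 8623 tested genes. The E-box CACGTG was found in 21.4% against 13.0%, the NRF1 core GCGCATGC in 11.9% against 6.65% and CCAAT in 47.6% against 43.6%, and none of the 4 motifs contains another. Between the 15 members called higher and the 27 not called, the split was 5 and 18 for the ETS core, 2 and 7 for the E-box, 3 and 2 for the NRF1 core and 9 and 11 for CCAAT. By single promoter, over all 35116 of that length, the shares were 10.3% for the ETS core, 7.26% for the E-box, 3.05% for the NRF1 core and 34.6% for CCAAT. From the 8 most stable members, the upstream sequence of 1 of the 2 listed starts of DDX21 and of the 1 listed start of DHX35 is shown, with an ETS core for DDX21 and a pair of E-boxes for DHX35 in capitals, each cut at the gene start in the deposited table. The other listed start of DDX21 lies downstream of that gene start, and its promoter (chr10:68956397-68956696, not printed) holds an E-box and no ETS core.
DDX21, chr10:68955920-68956169, plus strand: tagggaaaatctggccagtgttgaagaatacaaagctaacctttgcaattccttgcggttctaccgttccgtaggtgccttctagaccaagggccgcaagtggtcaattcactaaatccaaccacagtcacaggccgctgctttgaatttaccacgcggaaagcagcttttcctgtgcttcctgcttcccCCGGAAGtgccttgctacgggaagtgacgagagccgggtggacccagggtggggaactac
DHX35, chr20:38962094-38962298, plus strand: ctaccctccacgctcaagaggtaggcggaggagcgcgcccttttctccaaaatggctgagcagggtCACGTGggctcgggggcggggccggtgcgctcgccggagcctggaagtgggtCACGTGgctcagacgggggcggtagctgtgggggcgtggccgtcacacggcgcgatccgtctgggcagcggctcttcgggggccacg
DDX21 rose by 0.60 and DHX35 by 0.59 on the log2 scale. A match describes letters and is neither a binding site nor a cause.

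Some relatives and partners of the family rose and others fell. Of 22 symbols of DExD/H-box helicases named otherwise, 17 were tested, and 6 rose (AQR, ASCC3, EIF4A2, MTREX, SUPV3L1 and YTHDC2) and 3 fell (HELZ2, MOV10 and UPF1), with a median log2 fold change of 0.15. Of all tested genes 16.2% rose and 19.3% fell, so the number that fell is near the background. After the GC correction 5 of the 17 were higher and 2 lower, beside 13.0% and 14.3% of all tested genes. EIF4A3 was called higher there, while UPF1, SUPV3L1 and YTHDC2 were no longer called (log2 fold changes of 0.08, 0.16 and 0.19), and UPF1 changed sign from -0.23. Those 3 were each called in 1 of the 6 leave-one-out fits. EIF4A2, a form of the cap-dependent initiation helicase, went from 33.8 ± 2.59 to 52.0 ± 0.89 FPKM (SD, n = 3), a log2 fold change of 0.63 (edgeR: SE 0.071, adjusted p = 0.00282). MTREX, the helicase that feeds RNA to the nuclear exosome, went from 9.97 ± 1.16 to 15.7 ± 0.67 FPKM, a log2 fold change of 0.67 (edgeR: SE 0.095, adjusted p = 0.0047). ASCC3, of the complex that splits collided ribosomes, went from 5.50 ± 0.64 to 8.38 ± 0.52 FPKM, a log2 fold change of 0.61 (edgeR: SE 0.088, adjusted p = 0.0047). HELZ2, a coactivator of nuclear receptors, went the other way, from 2.09 ± 0.30 to 1.17 ± 0.0046 FPKM, a log2 fold change of -0.84 (edgeR: SE 0.13, adjusted p = 0.00606).

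Of 51 cofactors, the G-patch, MIF4G and direct partner proteins that switch helicases on or hold them, all 51 were tested, 16 rose and 4 fell (CASC3, CHERP, LSM14B and PATL1), with a median log2 fold change of 0.21. The share higher was 31.4%, beside 16.2% of all tested genes, and 19.3% of those fell. After the GC correction 15 of the 51 were higher and 3 lower, beside 13.0% and 14.3% of all tested genes. CASC3, CHERP (-0.41 before and -0.08 after), GEMIN2, NOM1, THOC1, THOC2 and UTP25 were no longer called. GPATCH3, GPKOW, WDR74 and ZGPAT were called higher, and PDCD4 lower. ALYREF, which DDX39B and DDX39A load on mRNA, went from 76.5 ± 1.61 to 113 ± 3.59 FPKM (SD, n = 3), a log2 fold change of 0.57 (edgeR: SE 0.059, adjusted p = 0.00255). MAGOH, of the exon junction complex, went from 28.8 ± 2.38 to 46.2 ± 0.34 FPKM, a log2 fold change of 0.69 (edgeR: SE 0.074, adjusted p = 0.00264). LSM14B, a P-body protein and partner of DDX6, fell from 14.0 ± 0.58 to 8.57 ± 0.42 FPKM, a log2 fold change of -0.71 (edgeR: SE 0.069, adjusted p = 0.00244). SMN1, of the complex that holds DDX20, had a log2 fold change of 0.59 (edgeR: SE 0.06, adjusted p = 0.00255), uncertain because of its near-identical copy SMN2. Without si NC replicate 3 the number of cofactors higher was 10, beside 1106 of all tested genes in that fit. Without PLOD3 siRNA replicate 1 the number of cofactors lower was 2, beside 1530 of all tested genes.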

How the data were processed

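RNA-seq of 3 si NC and 3 PLOD3 siRNA samples was used, grouped by their titles. The authors deposited 1 table of 60612 genes, with FPKM and estimated counts side by side per the file headers. The counts are whole numbers and are not scaled to a common total. StringTie 1.3.4d, HISAT2 2.0.4 and cutadapt 1.9 are listed in the submitters' processing notes, without settings. For the build, annotation, strand and counting step, nothing is given in the sources used here. Gene positions overlapped GENCODE release 29 (GRCh38) for 50 of 50 members, so coordinates were read as GRCh38. On average 1490 genes per sample stood at a count of 4, against 558 at 3 and 312 at 5. About 4 units were therefore taken as a read pair, which makes the precision lower than the counts alone would give.

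The counts were tested as deposited with edgeR 4.0.16 in R 4.3.3 (TMM, quasi-likelihood, two-sided, all 6 samples, no covariate) over the 12000 genes that averaged 1 FPKM or more, with Benjamini-Hochberg adjustment and a threshold of 0.05. The GC correction fits a loess trend (span 0.5) per sample over 11968 genes with a GC value and enters it as offsets. Alternatives were limma 3.58.1, DESeq2 1.42.0, other scalings and filters, and each sample left out. Per-sample values are given for the 4 members with the smallest p in each role, the 2 most abundant members and the paralog pairs, and up to 4 genes are named by p in each companion list. Members that make up a small count were named after their values were seen. The members, roles and lists were chosen with earlier results of these data known. The code was tested on simulated data.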

Additional observations from a re-analysis of the deposited data

How the results depend on the processing

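DDX18, DDX47, DDX21, DHX35, DDX39A and DHX9 kept their direction and call under every alternative they were tested in (DHX35 was below a mean FPKM of 5 and untested there), while DDX1 and DHX29 were not called with the replicate block and the GC correction together. The cause of the changes below was not tested.

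Leaving out 1 sample at a time gave 11 to 14 members higher and 0 lower, 1083 to 1651 of all genes higher and 1509 to 2011 lower, 1 to 3 spliceosomal members, 3 to 6 of ribosome assembly and 1 to 2 of export higher, 10 to 15 cofactors higher and 2 to 5 lower, and a difference in the log2 ratio of DDX19A to DDX19B of -0.039 to 0.061. It turned the direction of DDX19A (-0.11 to 0.018), DDX19B (-0.077 to 0.00038), DDX23 (-0.030 to 0.049), DDX51 (-0.17 to 0.0038) and DDX56 (-0.020 to 0.087), none of them called.

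The GC correction gave 2 members lower, 2 spliceosomal, 2 export and 1 translation member higher and a median of 0.17. It reversed DDX19A (0.017), DDX51 (0.19), DHX16 (0.017), DHX30 (0.16), DHX34 (0.24), DHX37 (0.17), DHX38 (0.10) and DHX40 (-0.090). Samples with the same replicate number did not deviate together over the tested genes (correlations of 0.0486, -0.0107 and -0.023). These values cannot exclude a shared batch, and none is labelled. With the replicate block 13 members rose and 0 fell, with 2 spliceosomal members higher, beside 1471 and 1834 of all 12000 genes. With the replicate block and the GC correction the counts were 13 and 1, with 1065 and 1222 of all genes, 0 translation members higher, 0 other helicases lower, 10 cofactors higher and a median of 0.17, and DDX19A (0.014), DDX51 (0.18), DHX16 (0.016), DHX30 (0.16), DHX34 (0.24), DHX37 (0.17), DHX38 (0.10) and DHX40 (-0.093) reversed.

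A mean FPKM of at least 5 gave 1192 of all genes higher and 1354 lower, 2 spliceosomal members higher and 1 lower (DHX16, the 1 member lower), a median of 0.17, and DDX23 at -0.039 and DDX56 at -8.98e-06. On the TPM scale 1461 of all genes were lower, 3 export members higher, 2 cofactors lower and the median 0.33, and DDX19A (0.057), DDX19B (0.049), DDX51 (0.010), DHX8 (0.051) and DHX34 (0.0079) reversed. With limma on log2(FPKM + 0.1) 2 spliceosomal members were higher, DDX23 was at -0.0030, and it was -0.0029 with a pseudocount of 1. DESeq2 called 2 export members. Low counts limit the 4 germ-line members, which were not tested.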
